A study of Mus musculus with 4 samples.

Results

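Imprinted genes are transcribed mainly from the allele inherited from 1 parent. Most lie in clusters, in which DNA methylation laid down in the egg or the sperm marks an imprinting control region, and that mark sets which parental copy of several neighbouring genes is active. Many of their products act in growth before birth, with paternally expressed genes often promoting growth and maternally expressed genes often restraining it. The 35 imprinted mouse genes described here were chosen by name from that general knowledge, at a time when earlier results of these data were known. The data held all 35 among 22096 gene symbols. Of these, 11 are known for maternal expression, 22 for paternal expression, and Gnas and Grb10 for a parental origin that differs between transcripts or tissues. The reads were not split by allele, so the parental origin given here is background and was not measured.

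The libraries came from palatal mesenchyme cells of 4 mouse embryos at embryonic day 13.5, sorted by flow cytometry for a red fluorescent protein (RFP). All 4 embryos carried Osr2RFP/+, a reporter placed in the Osr2 locus, which is active in the growing palatal shelves. They were littermates on a mixed background from Foxf2+/- females and Foxf2+/- Osr2RFP/+ males. The groups were 2 Foxf2-/- Osr2RFP/+ embryos and 2 controls, of which 1 was Osr2RFP/+ with both Foxf2 alleles intact (Foxf2+/+) and 1 was Foxf2+/- Osr2RFP/+. Foxf2 encodes a forkhead transcription factor, and the Foxf2-/- embryos are also called mutants. Each control genotype was thus a single embryo, and the null allele was present in all cells of the Foxf2-/- embryos.

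Values were FPKM, read fragments scaled for transcript length and library size, so levels of different genes can be set side by side. A gene was tested where at least 1 embryo reached 5 FPKM, and changes were fitted on log2(FPKM + 0.1) with limma over all 7399 such genes. A gene was called when its Benjamini-Hochberg adjusted p was below 0.05 and its change exceeded 1.5-fold. As a second, untested criterion, a gene was counted when the Foxf2-/- mean was over 1.5-fold above both controls, or over 1.5-fold below both.

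Foxf2 checked the genotypes, with 85.4 FPKM with Foxf2 intact (+/+), 45.1 FPKM in Foxf2+/-, and 1.41 and 2.28 FPKM in the mutants. The 8 mesenchyme markers summed to between 915 and 1087 FPKM. Both mutants lay below both controls for Shox2, Twist1, Prrx1 and Pdgfra, as for 38.7% of all genes tested. The groups overlapped for Osr2, Msx1, Barx1 and Col1a1. Shox2 had 113.5 (+/+) and 73.4 (+/-) FPKM in the controls against 47.7 and 63.7 FPKM in the mutants. Endothelium markers summed to 0.42 (+/+) and 0.61 (+/-) FPKM against 0.89 and 1.5 FPKM in the mutants. Muscle markers summed to 0.70 and 0.79 FPKM against 0.37 and 0.28 FPKM. Those of epithelium and of neurons and glia summed to at most 5.84 and 7.46 FPKM, and those of macrophages to at most 16.1 FPKM. Cartilage and bone markers, some of which mesenchyme also expresses, summed to between 82.4 and 86.98 FPKM. The 6 red blood cell markers summed to 19.8 FPKM in the Foxf2+/+ embryo and to 293 FPKM in Foxf2-/- replicate 2, the lowest and the highest of the 4. Xist was at most 0.0455 FPKM while 4 Y-linked genes were detected in all 4 embryos, so no sex difference stood between the groups. The median log2 change of all genes tested was -0.08, and 73.1% of them had a log2 change below 0. In bulk RNA, fewer cells that express a gene and less RNA per cell cannot be told apart.

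The imprinted genes ranged from under 1 FPKM to among the most abundant transcripts of these cells, and none of those tested was called in the Foxf2-/- embryos. Of the 35 genes, 21 passed the 5 FPKM filter, and 7 of them (Gnas, Nnat, H19, Mest, Cdkn1c, Grb10 and Peg10) ranked in the top 1% of all genes by mean FPKM, while the other 14 of the 35 were not tested. Together the 35 genes made up between 1.09% and 1.18% of the summed FPKM of an embryo. The limma test called 0 of the 21, against 6 of 7399 genes (0.0811%). At an unadjusted p below 0.05 there were 5 of the 21 (Asb4, Peg10, Begain, Airn and Sgce), against 1084 of all genes tested (14.7%). Begain passed the filter through Foxf2-/- replicate 2 alone, so its place in this count is not evidence of a difference. The 1.5-fold criterion also counted 0 of the 21, against 0.46% of all genes in the higher direction and 0.203% in the lower direction. With 2 embryos against 2, an exact permutation test cannot go below a two-sided p of 0.333, so no such test is given for single genes.

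**Figure D1:**
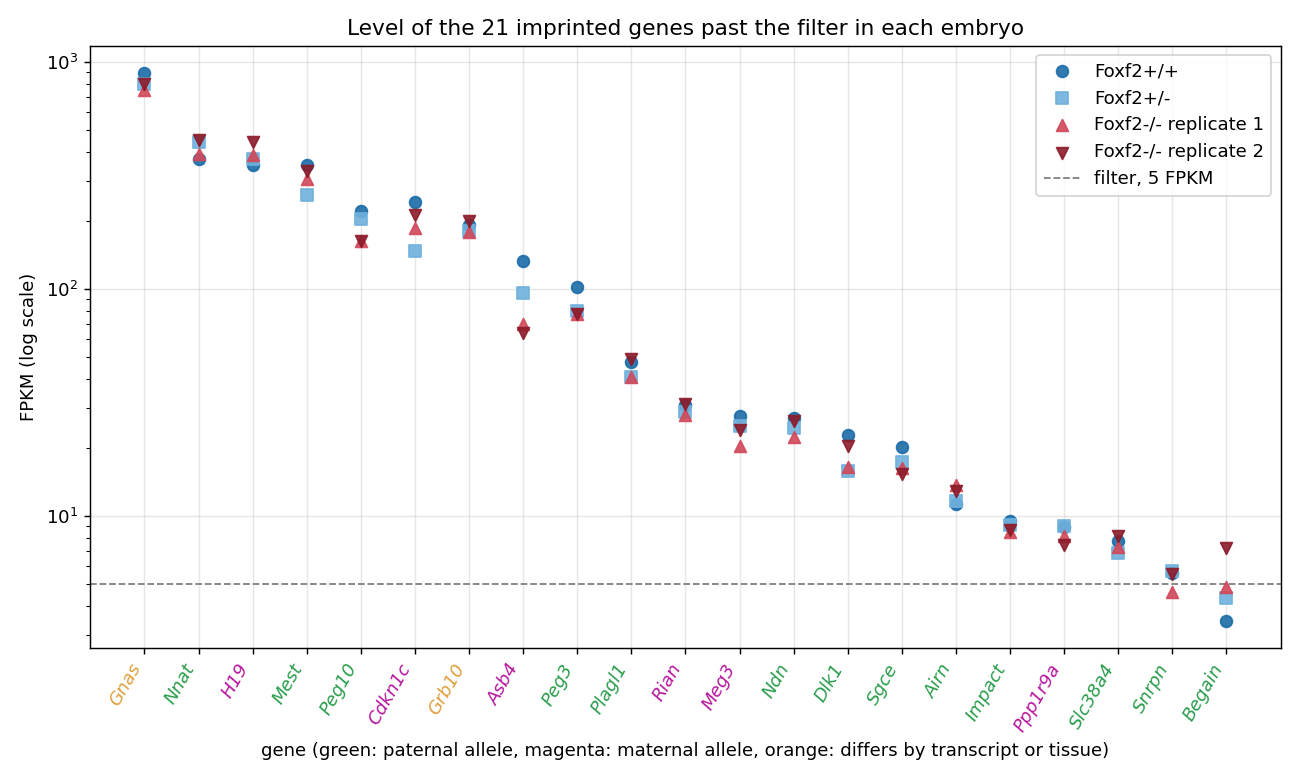
FPKM on a log axis for each of the 21 imprinted genes past the filter, ordered by their control mean, with 1 point per embryo and the 5 FPKM filter as a dashed line. The levels run from 891 FPKM for Gnas in the Foxf2+/+ embryo down to 3.47 FPKM for Begain in the same embryo, and for most genes the Foxf2-/- points lie among or next to the control points.

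Both Foxf2-/- embryos lay below both controls for 8 of the 21 genes (38.7% of all genes tested did so) and above both for 3 of the 21 (8.66% of all genes). After median-ratio scaling between the libraries these counts were 4 below and 5 above, with 23.4% and 20.3% of all genes. The 4 genes that lay below under either scaling were Asb4, Peg10, Meg3 and Impact. Airn, Begain and H19 lay above under either, though Begain passed the filter through Foxf2-/- replicate 2 alone. The counts below the controls were therefore close to their background, and their split between higher and lower depended on the scaling. By parental origin, the median log2 change was -0.11 over the 6 maternally expressed genes and -0.06 over the 13 paternally expressed genes, against -0.08 over all genes tested. The paternal median ran from -0.14 to 0.10 when each embryo was left out and was 0.018 after median-ratio scaling, so its direction was not fixed. The controls themselves differed: in 11 of the 21 genes the Foxf2+/+ and Foxf2+/- embryos were further apart on the log2 scale than the Foxf2-/- mean was from the control mean, and this held for 47.7% of all genes.

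**Figure D2:**
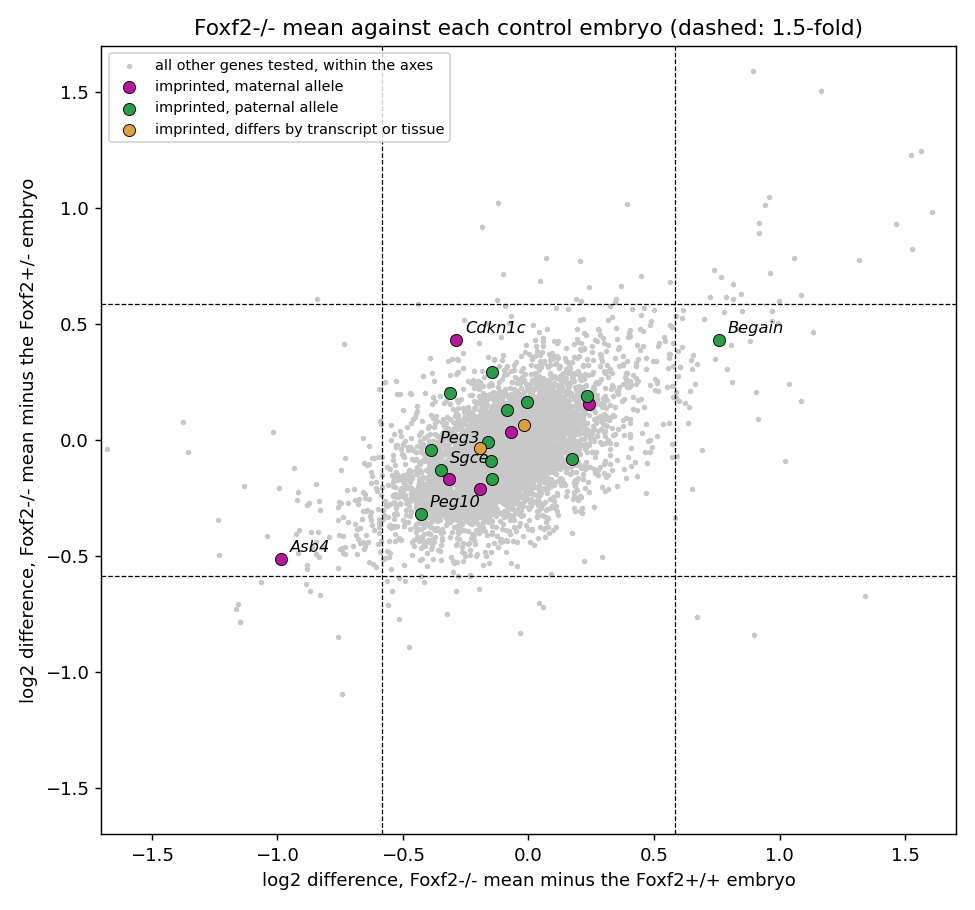
Log2 difference of the Foxf2-/- mean from the Foxf2+/+ embryo (horizontal) and from the Foxf2+/- embryo (vertical), with 1 point per gene, imprinted genes coloured by the allele they are known to be expressed from and dashed lines at 1.5-fold. Asb4 (-0.98 and -0.51) and Begain (0.76 and 0.43) lie farthest from the centre and pass the 1.5-fold line against the Foxf2+/+ embryo only, and no imprinted gene lies in a corner beyond both lines.

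Asb4 and Peg10, the genes of the list with the lowest unadjusted p, belong to 1 cluster on proximal chromosome 6, which holds paternally expressed Peg10 and Sgce and maternally expressed Ppp1r9a and Asb4. All 4 of these genes had both Foxf2-/- embryos below both controls on the deposited scale, where 38.7% of all genes did. After median-ratio scaling Asb4 and Peg10 still did, where 23.4% of all genes did. The cluster is described because of Asb4 and Peg10, so their place in these counts is not separate support. Peg10, a placental gene derived from a retrotransposon, and Sgce, which encodes epsilon-sarcoglycan of the cell membrane, start 102 bases apart on opposite strands. The bases between those starts are shown because the cluster's paternally expressed pair is transcribed away from both of their ends, and those before Asb4 because Asb4 had the largest difference among the imprinted genes. They are given on the plus strand of mm9, taken from the NCBIM37 genome with starts from the files, at chr6:4697205-4697305 and chr6:5333186-5333385. Capitals mark TGCCGC or its reverse complement, the letters bound by the imprint-protecting zinc finger protein ZFP57 when methylated, and would also mark the forkhead letters GTAAACA and ATAAACA on either strand, of which neither sequence held any.
Sgce-Peg10: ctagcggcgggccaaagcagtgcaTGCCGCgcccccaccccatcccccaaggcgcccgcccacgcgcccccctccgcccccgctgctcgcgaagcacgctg
Asb4: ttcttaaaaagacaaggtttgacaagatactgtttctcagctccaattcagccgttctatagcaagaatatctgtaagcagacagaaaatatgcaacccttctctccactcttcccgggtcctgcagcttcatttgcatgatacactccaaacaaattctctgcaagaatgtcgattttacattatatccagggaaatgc

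The stretch between Sgce and Peg10 held 13 CpG sites in 101 bases and 78.2% G or C, and its TGCCGC match began 77 bases before the Peg10 start. Of the 7284 genes past the filter with a start on a known strand, 8.96% had this match in the 101 bases before their start, with a median of 9 CpG sites. The 200 bases before Asb4 held 3 CpG sites, no match to either motif and 40% G or C, beside a median of 15 CpG sites over the same genes. At that length 14.2% of those genes had TGCCGC and 2.71% had a forkhead match. These matches describe the letters of the windows only.

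Asb4 encodes an ankyrin repeat and SOCS box protein that recruits proteins to a ubiquitin ligase, and it lies at chr6:5333386-5383021. Its level was 133 FPKM with Foxf2 intact (+/+), 95.9 FPKM in Foxf2+/-, and 70.3 and 64.2 FPKM in the mutants. The groups did not overlap, and the Foxf2+/- embryo lay between the other genotypes. The Foxf2-/- mean was 1.98-fold below the Foxf2+/+ embryo and 1.43-fold below the Foxf2+/- embryo on the log2(FPKM + 0.1) scale. The limma log2 change was -0.75 ± 0.15 (SE, n = 2 against 2, 95% interval -1.09 to -0.41), with an adjusted p of 0.109 (range over the alternatives 9.5e-04 to 0.535). Asb4 was called by limma with the number of null alleles as a linear term (adjusted p = 0.0201, 43 genes called in all) and without the Foxf2+/- embryo (9.5e-04, 122 genes called). It was also called when each genotype had its own mean (adjusted p = 0.0027 by limma, 78 genes called), a fit in which each control genotype is 1 embryo and all residual spread comes from the 2 mutants.

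Peg10 had 220 FPKM with Foxf2 intact (+/+) and 203 FPKM in Foxf2+/-, against 163 FPKM in each mutant. Both mutants lay below both controls, and their values were closer to each other than those of the controls. The log2 change was -0.37 ± 0.09 (SE, n = 2 against 2, 95% interval -0.59 to -0.16), with a limma adjusted p of 0.183. Sgce, transcribed away from Peg10 on the other strand, had 20.1, 17.3, 16.3 and 15.3 FPKM in the same order of embryos, a log2 change of -0.24 ± 0.10 (SE). The highest mutant value of Sgce lay just below the Foxf2+/- value, and the groups overlapped after median-ratio scaling.

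Ppp1r9a, which encodes neurabin, a regulatory subunit of protein phosphatase, had 8.95 (+/+) and 9.06 (+/-) FPKM in the controls against 8.20 and 7.47 FPKM in the mutants. Its log2 change was -0.20 ± 0.10 (SE), and like Sgce it overlapped between groups after median-ratio scaling. Casd1, an imprinted gene of the wider list on the far side of Sgce, had a log2 change of -0.24 ± 0.10 (SE) with a limma adjusted p of 0.312. Further out, Col1a2, which encodes a chain of type I collagen, had a log2 change of -0.04 ± 0.11 (SE), Bet1 of -0.10 ± 0.10 and Gng11 of 0.13 ± 0.13. Within 1 Mb of the Peg10 start, 6 of the 8 genes past the filter had both mutants below both controls, and 0 had both above. Over all genes tested, 38.7% lay below. Those 6 include the 4 cluster genes whose values led to this window, so the count is not separate support. Of the others, Casd1 and Bet1 lay below, and Col1a2 and Gng11 overlapped the controls. After median-ratio scaling 3 of the 8 lay below, where 23.4% of all genes did. Whether the cluster differed from its surroundings was not tested.

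**Figure D3:**
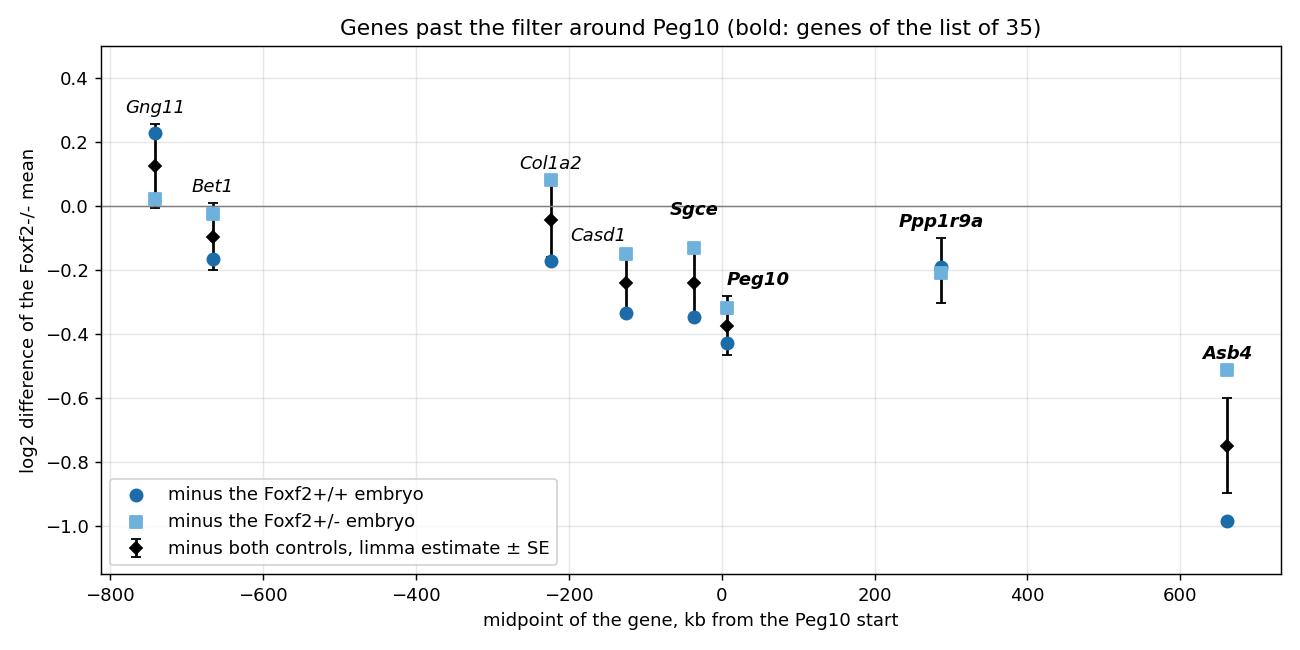
Log2 difference of the Foxf2-/- mean from each control embryo (blue points) and from both (black diamonds, limma estimate ± SE) for the 8 genes past the filter around Peg10, against the distance of the gene's midpoint from the Peg10 start in kb. Both comparisons lie below 0 for Bet1 and from Casd1 to Asb4, where they are -0.98 and -0.51, while Gng11 lies above 0 and Col1a2 lies on either side of it.

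The Dlk1-Dio3 cluster on distal chromosome 12 gave values in both directions. It holds paternally expressed protein genes (Begain, Dlk1, Rtl1 and Dio3) and maternally expressed noncoding RNAs (Meg3, Rian and Mirg). Begain, named for its association with the guanylate kinase of the postsynaptic density, had 3.47 FPKM with Foxf2 intact (+/+), 4.37 FPKM in Foxf2+/-, and 4.87 and 7.21 FPKM in the mutants. The mutants lay above the controls, but 3 of the 4 embryos were under the 5 FPKM filter and Foxf2-/- replicate 2 carried most of the difference. The log2 change was 0.59 ± 0.22 (SE, n = 2 against 2, 95% interval 0.10 to 1.09), with a limma adjusted p of 0.279, and Begain met the 1.5-fold criterion only without Foxf2-/- replicate 1 or without the Foxf2+/- embryo. Because 1 mutant value brought Begain past the filter, its presence among the genes tested is not evidence of a difference. The red blood cell markers were also lowest in the Foxf2+/+ embryo and highest in Foxf2-/- replicate 2. Between these came Foxf2-/- replicate 1 at 114.5 FPKM and Foxf2+/- at 127.6 FPKM. Begain and H19 had Foxf2-/- replicate 1 above Foxf2+/-. Nnat and Igf2, the growth factor gene next to H19, had the embryos in the same order as the red blood cell markers. The part of red blood cells in the values of these genes was not tested.

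Meg3, a long noncoding RNA of the maternal chromosome, had 27.6 (+/+) and 24.9 (+/-) FPKM in the controls against 20.4 and 24.0 FPKM in the mutants, a log2 change of -0.24 ± 0.11 (SE, limma adjusted p = 0.359). The groups were apart by less than the difference between the mutants. Most of the Meg3 sum came from the transcript entry NR_027652, with 22.6, 19.9, 15.5 and 18.8 FPKM in these embryos. The entry NR_003633, which starts further downstream, stayed between 4.90 and 5.16 FPKM. The entries overlap, so the split between them is an estimate. Rian, the next noncoding RNA, which hosts small nucleolar RNAs, had 30.9, 28.7, 27.9 and 31.0 FPKM (embryos as listed for Meg3), a log2 change of -0.02 ± 0.10 (SE). Dlk1, which encodes a membrane-bound relative of the Notch ligands, had 22.7, 15.9, 16.4 and 20.3 FPKM in these embryos. Both mutants lay within the range of the controls for Dlk1, whose direction depended on which control was used (log2 -0.31 against Foxf2+/+ and 0.20 against Foxf2+/-). Rtl1, Dio3 and Mirg stayed under the filter, at between 0.917 and 3.39 FPKM.

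The summed level of Grb10 was similar in all 4 embryos, while its transcript entries stood apart between the groups. Grb10 encodes an adaptor that restrains signalling from the insulin and insulin-like growth factor receptors, and it is known for maternal expression in most tissues and for paternal expression in neurons, where other start sites are used. The sum over its entries was 191 FPKM with Foxf2 intact (+/+), 181 FPKM in Foxf2+/-, and 179 and 199 FPKM in the mutants. The log2 change of the sum was 0.02 ± 0.10 (SE, 95% interval -0.20 to 0.25). The files hold 2 RefSeq entries on the minus strand of chromosome 11, which start at base 11937423 and, 9.45 kb downstream, at base 11927974. The sequences before these starts are shown because the values of the entries differed in opposite directions, each as the 200 bases before its start on the minus strand of mm9, at chr11:11937424-11937623 and chr11:11927975-11928174. Neither held a match to the motifs marked by capitals above.
Grb10 upstream start: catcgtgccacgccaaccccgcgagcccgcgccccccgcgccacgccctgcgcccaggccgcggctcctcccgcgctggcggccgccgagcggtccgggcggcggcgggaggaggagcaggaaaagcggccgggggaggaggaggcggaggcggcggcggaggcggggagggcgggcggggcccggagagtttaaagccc
Grb10 downstream start: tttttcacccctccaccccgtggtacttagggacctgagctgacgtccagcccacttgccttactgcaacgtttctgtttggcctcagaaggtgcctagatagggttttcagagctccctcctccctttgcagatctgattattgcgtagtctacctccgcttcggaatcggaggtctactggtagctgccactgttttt

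The window before the upstream start held 32 CpG sites and 81.5% G or C, whereas that before the downstream start held 7 CpG sites and 52.5%. The entry from the downstream start (NM_001177629) had 31.4 FPKM with Foxf2 intact (+/+), 28.9 FPKM in Foxf2+/-, and 61.2 and 62.3 FPKM in the mutants. The mutants were above both controls, and the gap between the groups was many times the difference within either. The entry from the upstream start (NM_010345) had 160 (+/+) and 152 (+/-) FPKM in the controls against 118 and 137 in the mutants, with both mutants below both controls.

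In a fit of each entry on its own, the downstream entry had a log2 change of 1.03 ± 0.08 (SE, n = 2 against 2, 95% interval 0.82 to 1.24) and the upstream entry of -0.29 ± 0.10 (SE). The limma adjusted p of the downstream entry was 0.141 over 7821 entries, of which 0 were called (0%) while 891 (11.4%) had an unadjusted p below 0.05. By unadjusted p (3.6e-05) it ranked 2nd of those entries, and its log2 change stayed between 0.97 and 1.09 when each embryo was left out. It met the 1.5-fold criterion, as did 2.56% of all entries. The downstream entry took 16.5% and 16.0% of the Grb10 sum in the Foxf2+/+ and Foxf2+/- embryos but 34.2% and 31.3% of it in the mutants. The log2 ratio of this entry to the upstream entry was 1.33 ± 0.29 (SE) higher in the mutants, with a limma adjusted p of 0.654 over 1831 such entries, and the criterion on these ratios counted 13.9% of them.

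The entries share most of their length, which bears on how well the reads could be assigned. The GENCODE transcripts that begin at or near these starts share 15 exons, and 375 bases are found only in the one from the upstream start and 69 bases only in the one from the downstream start. The FPKM of each entry is thus an estimate of how shared reads were divided. The neuron and glia markers were low, with no single marker above 4.18 FPKM. They summed to 3.56 (+/+) and 7.46 (+/-) FPKM in the controls against 6.03 and 6.47 FPKM in the mutants. The groups overlapped for each of these markers except Sox10, with 0.14 and 0.16 FPKM in the controls against 0.47 and 0.35 FPKM. The part of neurons and glia in the Grb10 values was not tested.

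**Figure D4:**
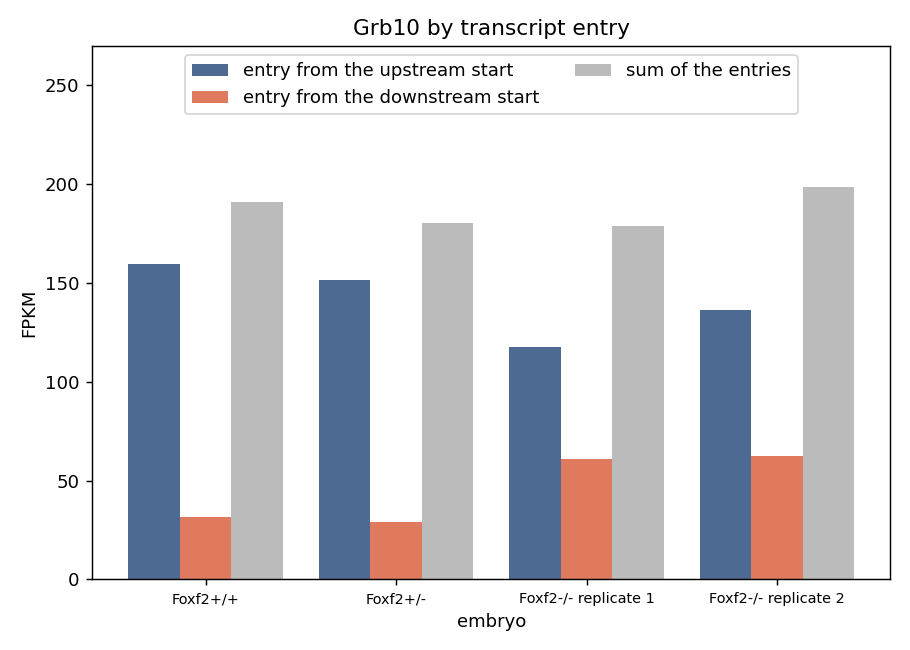
FPKM of the Grb10 entry from the upstream start (blue), the entry from the downstream start (orange) and their sum (grey) in each of the 4 embryos. The downstream entry stands at 31.4 (+/+) and 28.9 (+/-) FPKM in the controls against 61.2 and 62.3 in the mutants, while the sum stays between 179 and 199 FPKM.

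Gnas, the gene of the stimulatory G protein alpha subunit, was the most abundant of the imprinted genes at 891, 796, 755 and 802 FPKM in the Foxf2+/+, Foxf2+/- and Foxf2-/- embryos. The mutants straddled the Foxf2+/- value, and the log2 change was -0.11 ± 0.10 (SE). Its entries begin at several first exons that splice onto shared exons, and an entry annotated as noncoding held between 89.7% and 92.7% of the sum. Because the entries overlap, that share says little about which promoter was used. The entry from the most upstream of these start sites with a measurable level (NM_019690) had 1.73, 2.03, 1.72 and 2.82 FPKM, with the embryos in that order.

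H19 and Cdkn1c, 2 maternally expressed growth-restraining genes of distal chromosome 7, were both abundant. H19, a noncoding RNA that is the precursor of a microRNA, had 352 (+/+) and 373 (+/-) FPKM in the controls against 388 and 445 FPKM in the mutants, a log2 change of 0.20 ± 0.10 (SE, limma adjusted p = 0.422). The mutants lay above the controls, with replicate 2 the farthest. Igf2, the paternally expressed growth factor gene next to H19, had 533 (+/+) and 580 (+/-) FPKM in the controls against 559 and 725 in the mutants, and its groups overlapped.

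Cdkn1c, which encodes the cell cycle inhibitor p57, had 241 FPKM with Foxf2 intact (+/+), 146 FPKM in Foxf2+/-, and 185 and 211 FPKM in the mutants. It differed more between the controls (1.65-fold) than any other of the 21 genes, and both mutants lay between them. The log2 change was 0.07 ± 0.20 (SE, 95% interval -0.39 to 0.53), so neither direction was resolved. The remaining genes of the list from the Kcnq1 cluster (Phlda2, Slc22a18, Ascl2 and the noncoding Kcnq1ot1) stayed under the filter, with at most 2.47 FPKM.

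Mest, which encodes a mesoderm-specific protein of the hydrolase family, had 350 (+/+) and 259 (+/-) FPKM in the controls against 304 and 331 FPKM in the mutants, so the mutants again lay between the controls. Peg3, which encodes a large zinc finger protein, had 102 (+/+) and 80.1 (+/-) FPKM in the controls against 77.8 and 77.5 in the mutants, a log2 change of -0.22 ± 0.12 (SE, limma adjusted p = 0.450). The Peg3 mutants were close to the Foxf2+/- embryo, and the Foxf2+/+ embryo stood apart. Usp29, which starts 322 bases from Peg3 on the other strand, had at most 0.662 FPKM, and Zim1 in the same cluster had 3.88 FPKM in the Foxf2+/+ embryo and at most 2.68 FPKM in the others.

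Airn, the paternally expressed noncoding RNA that silences Igf2r and runs antisense across it, had 11.3 (+/+) and 11.6 (+/-) FPKM in the controls against 13.7 and 12.9 FPKM in the mutants. The groups did not overlap, and the log2 change was 0.21 ± 0.09 (SE, limma adjusted p = 0.332). Igf2r, the maternally expressed receptor that clears insulin-like growth factor 2, had 18.4, 16.2, 20.2 and 20.8 FPKM (embryos as listed for Airn), a log2 change of 0.25 ± 0.10 (SE, limma adjusted p = 0.306). The library kit does not mark strand, so reads from the stretch where these genes overlap cannot be told apart.

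The other genes past the filter had log2 changes between -0.16 and 0.08. Nnat, which encodes the small membrane protein neuronatin, ranged from 373 to 452 FPKM over the 4 embryos. Plagl1, a zinc finger transcription factor gene, ranged from 40.9 to 49.2 FPKM, and Ndn, which encodes necdin, a protein that restrains the cell cycle, from 22.2 to 27.04 FPKM. For these 3 genes the controls and the mutants overlapped. Snrpn, which encodes a small nuclear ribonucleoprotein, Impact, which encodes a regulator of translation under amino acid shortage, and Slc38a4, an amino acid transporter gene, lay between 4.64 and 9.53 FPKM, with log2 changes of -0.16, -0.12 and 0.08. On the deposited scale the mutants lay below the controls for Snrpn and Impact and overlapped them for Slc38a4. After median-ratio scaling the mutants stayed below for Impact, overlapped the controls for Snrpn and lay above them for Slc38a4.

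The 14 genes under the filter had between 0 and 4.57 FPKM. Of these, 9 were at 1 FPKM or above in every embryo, and 3 were under 1 FPKM in every embryo. Magel2, Mkrn3 and Peg12 of the Prader-Willi cluster, Zrsr1 and Zdbf2 were all detected, with Zdbf2 between 3.91 and 4.57 FPKM. These genes were not tested.

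A wider list of 40 further imprinted genes was read for comparison, of which 2 were absent from the files, 23 were under the filter and 15 were tested. None of the 15 was called by limma (0.0811% of all genes) or counted by the 1.5-fold criterion (0.46% higher and 0.203% lower), and 3 had an unadjusted p below 0.05 (14.7% of all genes). The largest differences were those of Klf14 (log2 -0.49 ± 0.35 SE), Dcn (0.35 ± 0.11), Tssc4 (-0.28 ± 0.14) and Igf2r. Klf14, an intronless transcription factor gene near Mest, had 5.74 FPKM in the Foxf2+/+ embryo and between 2.72 and 2.84 FPKM in the others, so that the Foxf2+/- embryo matched the mutants. It passed the filter through the Foxf2+/+ embryo alone, so its place among the genes tested is not evidence of a difference. Dcn, which encodes the matrix proteoglycan decorin, had 26.3 (+/+) and 23.6 (+/-) FPKM in the controls against 29.0 and 34.8 in the mutants, with a limma adjusted p of 0.258.

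Most genes that set, protect or read imprints passed the filter in these cells, and those under it had between 0 and 2.37 FPKM. Of 31 such genes, 27 passed the filter, 0 were called by limma (0.0811% of all genes) and 0 met the 1.5-fold criterion (0.46% higher and 0.203% lower), and 3 had an unadjusted p below 0.05 (14.7% of all genes). Their median log2 change was -0.11, beside -0.08 over all genes, and 17 of the 27 had both mutants below both controls, where 38.7% of all genes did so, but 5 of the 27 after median-ratio scaling, where 23.4% of all genes did. The 3 with the largest differences were the cohesin subunit genes Smc3 (log2 -0.36 ± 0.09 SE, limma adjusted p = 0.212) and Smc1a (-0.31 ± 0.11, adjusted p = 0.266), and Zfp57.

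Zfp57, whose product keeps methylation at imprinting control regions, had 23.1 (+/+) and 23.6 (+/-) FPKM in the controls against 18.2 and 20.1 FPKM in the mutants. The groups did not overlap, and the log2 change was -0.29 ± 0.09 (SE, limma adjusted p = 0.252). Dnmt1, the maintenance DNA methyltransferase gene, had a log2 change of -0.14 ± 0.09 (SE), and Uhrf1, its recruiting partner, of -0.02 ± 0.09. Trim28, the corepressor that ZFP57 binds, had a log2 change of 0.12 ± 0.10 (SE), and Ctcf, the insulator protein gene, of -0.11 ± 0.09. Methylation itself was not measured.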

How the data were processed

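The 4 libraries were made from sorted RFP+ cells of single embryos. Single-end reads were placed on mm9 by the authors (Tophat, Bowtie), and the deposited FPKM values are estimates per RefSeq transcript in the form Cufflinks writes, with 1 table per embryo. Bowtie 0.12.7 is named in the submitters' processing notes, while the version and settings behind the FPKM are not given in the sources used here. The deposited coverage, which estimates reads per base of a transcript without scaling for library size, was used only to compare depth. The files hold no counts, so the depth in reads is unknown. By the ratio of coverage to FPKM, depth relative to Foxf2+/+ was 1.19 for Foxf2+/- and 1.02 and 1.14 for the Foxf2-/- replicates. No interval that needs read numbers is given.

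Entries of at least 200 bases were added up within each symbol, without 10 genes whose estimate had failed in an embryo, leaving 21352. No entry of the 35 imprinted genes was shorter than 200 bases. Values were tested as log2(FPKM + 0.1), which understates the change of low genes, for the 7399 genes with at least 5 FPKM in at least 1 embryo. limma 3.58.1 in R 4.3.3 compared the 2 Foxf2-/- embryos with the 2 controls under a mean-variance trend. Adjustment followed Benjamini and Hochberg over all genes tested. All p-values and adjusted p-values of single genes come from this tool, and the limma step was tested on simulated data. Python 3.11.15, pandas 2.3.3 and numpy 2.4.6 were used for the tables. Each p-value sets a change against a moderated spread, which joins the spread within the 2 groups of embryos with that of the other genes. The control part of it is 1 Foxf2+/+ against 1 Foxf2+/- embryo, so genotype and embryo cannot be told apart there.

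The imprinted genes, the wider lists, the markers and the rule for naming genes were chosen with earlier results of these data known. Every gene of the list was given with its values or within a count. Of the wider imprinted list the 4 largest differences, Igf2 and Igf2r were named, and of the imprint-keeping genes the 3 largest differences with Dnmt1, Uhrf1, Trim28, Ctcf and Zfp57. Casd1, Bet1, Col1a2 and Gng11 were named for their position beside Peg10 after their values were seen. The fits of single transcript entries and of ratios within a gene were added after seeing the data, and cover entries of at least 200 bases under the same filter. Alternatives varied the pseudocount, filter, scaling, entries, limma design, fold threshold and the embryos included. Sequences were read from the NCBIM37 genome, which is mm9, with strands from GENCODE M1. Starts are those of the files' RefSeq entries, counted from 1.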

Additional observations from a re-analysis of the deposited data

How the results depend on the processing

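Over the 15 alternatives of each of the 21 imprinted genes, 287 of 315 log2 changes kept their direction and their side of the adjusted p threshold, 25 reversed and 3, all of Asb4, passed it. The 12 genes that kept their direction throughout were Airn, Asb4, Begain, Gnas, H19, Impact, Meg3, Peg10, Peg3, Ppp1r9a, Sgce and Snrpn. Dlk1 and Rian reversed under median-ratio scaling (0.018 and 0.057) and upper-quartile scaling (0.024 and 0.063). With the highest entry in place of the sum, Nnat was at -0.033 and Grb10 at -0.29. With the number of null alleles as a linear term, Cdkn1c was at -0.18, Mest at -0.078, Grb10 at -0.0051 and Plagl1 at -0.056. Without each embryo in turn, the log2 change ran from -0.29 to 0.43 for Cdkn1c, -0.31 to 0.20 for Dlk1, -0.053 to 0.10 for Grb10, -0.14 to 0.29 for Mest, -0.21 to 0.038 for Ndn, -0.080 to 0.17 for Nnat, -0.11 to 0.15 for Plagl1, -0.094 to 0.060 for Rian and -0.0060 to 0.16 for Slc38a4.

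limma called 16 genes with a pseudocount of 1, 0 with no filter, 26 with all transcript entries, 1 with the highest entry, 78 with a mean for each genotype and 43 with the linear term, beside 6 as reported. The 1.5-fold criterion counted 49 genes as reported, 216 with a filter of 1 FPKM, 639 with no filter, 184 with all entries, 96 with the highest entry and 17 at more than 2-fold. Imprinted genes of the list were called by limma only in the fits with a mean for each genotype (1), with the linear term (1) and without the Foxf2+/- embryo (1), each time Asb4. In the fit with a mean for each genotype, each control genotype is 1 embryo and all residual spread comes from the 2 mutants. Leaving out an embryo gave 7 to 122 limma calls and 71 to 218 by the criterion, in each case the most without the Foxf2+/- embryo, and 0 to 1 list genes by limma and 0 to 2 by the criterion. The median log2 change of the maternally expressed genes was -0.035 and -0.029 under the scalings, -0.20 with the linear term, and -0.24 to -0.034 without each embryo, and that of the paternally expressed genes ran from -0.14 to 0.10 without each embryo. The cause was not tested. No alternative called a gene of the wider imprinted list or of the imprint-keeping list by limma. A fit without an embryo that leaves 1 sample in a group assumes that it varies like the other group. No paired analysis was possible because only the Foxf2-/- embryos carry replicate numbers.

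With 2 embryos a group and 1 embryo of each control genotype, the change was smaller than the difference between the controls in 11 of the 21 imprinted genes. The same held for 47.7% of all genes tested. The difference between the controls is one between single embryos, whereas the change is one between means of 2 embryos.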
